A study of Drosophila melanogaster with 24 samples.

Results

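Pupal stage 2 of the fruit fly Drosophila melanogaster was compared with embryos of 0-4 h on 3 arrays, taken by their labels from the 24 arrays of a life-cycle series. On every array whole-animal total RNA of the stage was hybridized against RNA of 0-4 h embryos, one in Cy5 and the other in Cy3. Pupae of each stage were picked by hand and snap frozen. The series also held embryos of 4-8 h, 8-12 h and 12-16 h, larvae, pupal stages 1 and 3 and young adults, and of these pupal stage 1 (2 usable arrays) and pupal stage 3 (3 arrays) served here as neighbours in time. The labels give the pupal stages no hours, and name no strain, genotype or sex of the pupae. The arrays are called a, b and c. Although the labels describe the 3 hybridizations of a stage as independent experiments, they do not state that separate collections of pupae or separate embryo RNA were used. The p-values rest on a spread taken over the usable arrays of all stages, not over a, b and c alone. That spread may in part be technical, and a gene can pass although its own arrays a, b and c differ widely.

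In the pupa of a fly, larval organs such as the salivary glands are broken down while the adult body is built from imaginal discs, histoblasts and myoblasts. The epidermis first secretes a pupal cuticle and later the adult cuticle, which is made of chitin and of proteins of several families and is hardened and coloured by catecholamines. Adult flight and leg muscles are assembled, photoreceptors and neurons mature, and the fat body carries serum proteins stored by the larva. The early embryo, in contrast, holds maternal RNA, divides its nuclei fast and begins its own transcription at cellularization. Pulses of the steroid ecdysone time these events.

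Every value below is a log2 ratio of the stage over the embryo RNA, so that 1 is a doubling, with each array's median probe set to 0 and 2 duplicate spots averaged. Each of 23808 probes was fitted with limma over the 23 usable arrays of the series with a term for the dye, and a result passed at a Benjamini-Hochberg adjusted p under 0.05. The deposited medians of the arrays, turned to stage over embryo, were -2.03 (a), -2.38 (b) and -0.98 (c), so that without centring the median of all estimates lay 1.76 lower. A gene is thus called higher or lower relative to the middle of all probes, not per cell or per animal. In whole animals, fewer cells of a type and less RNA per cell cannot be told apart.

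Arrays a and b, with the stage in Cy3, gave a correlation of 0.904 over the probes (probes are no replicates of the stage). Array c, with the stage in Cy5, stood apart, at r = 0.504 with a and 0.477 with b. Its correlation with the pupal stage 3 arrays was 0.686 (a) and 0.676 (b), which share its dye orientation, and 0.236 (c), which does not. Of 1379 probes beyond 2 in size both in the mean of a and b and in c, 178 had opposite signs. Relative to the array medians, the same dye was thus the brighter one in c and in the mean of a and b. All 178 passed the test of the dye term, and 6 passed against the embryo. Both counts are partly built in, since the probes were picked by opposite signs between the dye orientations of the same arrays. Of the 178, 177 carried no gene symbol. Dye, array and time of hybridization cannot be told apart here, so the values of a, b and c are given one by one.

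**Figure D1:**
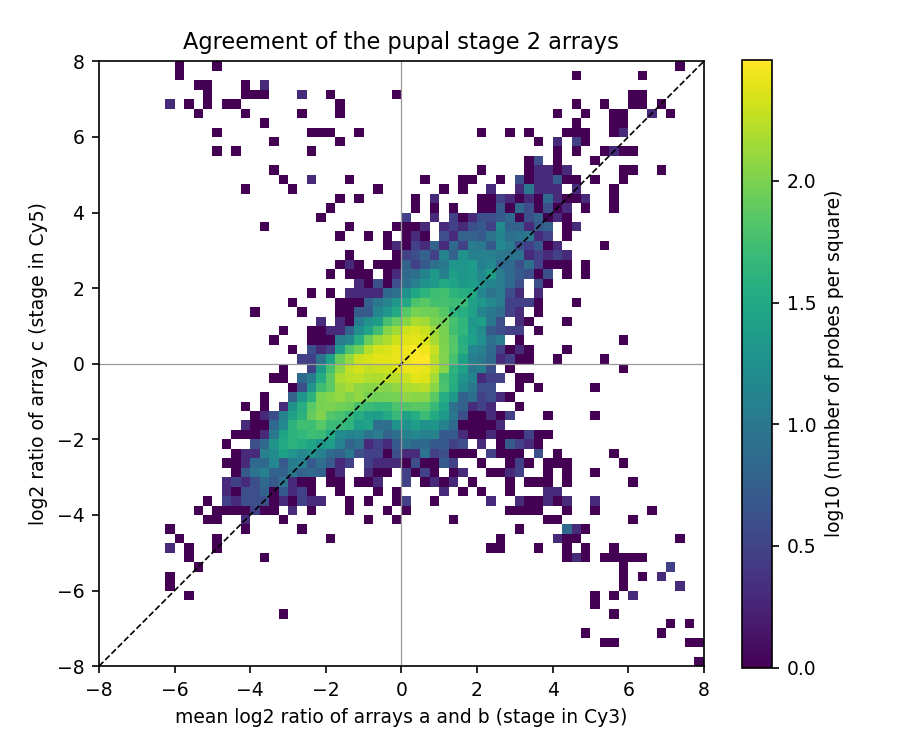
Number of probes (colour, log10) by the mean log2 ratio of arrays a and b (x axis) and the log2 ratio of array c (y axis), in squares of 0.25 on a side, with values beyond 8 drawn at the edge. The dashed line marks equal values. The crowded part of the plot departs from it, with array c closer to 0 where the mean of a and b is negative, and the 178 probes with opposite signs beyond 2 form the arms at the upper left and lower right.

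Against the embryo, 2215 probes were higher (9.30% of all 23808) and 3807 lower (16.0%) at pupal stage 2. Of these 6022 calls, 5893 had one sign on all 3 arrays, but the calls were picked by the values of the same arrays. The share of all probes with a shared sign was not counted, so this is no separate measure of agreement. Without centring the split turned from 36.8% of the calls being higher to 1.59%, with 264 higher and 16339 lower, so the counts hold relative to the median probe only. Leaving out array a, b or c left 1346 to 1461 probes higher and 2255 to 2913 lower. Among the 13455 probes with 1 gene symbol, which all lists below are made of, 9.75% were higher and 24.3% lower, with a median of -0.29. The largest rises were 99 probes of at least 4, against 30 that fell by at least 4.

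Genes of the contractile apparatus were among the highest of all. TpnC41C, a troponin C, the calcium sensor of the thin filament, measured 6.52, 6.79 and 6.58 on arrays a, b and c, with an estimate of 6.60 ± 0.34 (SE, adjusted p = 2.14e-10). TpnC4, the troponin C of the stretch-activated flight muscle, measured 6.02, 6.26 and 7.03. Scp1, a sarcoplasmic calcium-binding protein, measured 5.57, 6.29 and 6.62. The arrays of each of these genes lay close together and far above 0, although 1 of the 3 probes of Scp1 gave -0.20 (adjusted p = 0.848). The genes were picked as the highest by the same arrays, which partly builds in that all arrays lay above 0.

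Of 16 probes for thick and thin filament proteins, 14 were higher and 0 lower, with a median of 3.78 against -0.29 over all probes with a symbol. The troponin T gene up measured 4.35, 4.98 and 6.17, and the flight muscle protein flightin (fln) measured 4.34, 4.67 and 5.92, with array c the highest for both. The myosin light chain Mlc1 (4.47 ± 0.60) and paramyosin (Prm, 4.44 ± 0.40), the core of the thick filament, followed. For Prm, all 3 probes passed. Of 28 probes for Z-disc proteins and giant titin-like proteins, 23 were higher and 0 lower, with a median of 2.82. Obscurin (Obsc, 4.59), projectin (bt, 4.47) and Sallimus (sls, 4.05), proteins of the sarcomere, led the list, and all of their 9 probes passed. Both medians stayed above 0 without centring, at 2.02 and 1.06.

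The genes that make myoblasts and let them fuse did not share these levels. Of 26 such probes, 1 was higher and 1 lower, with a median of -0.33. The higher one, hibris (hbs), a fusion receptor, measured 0.74, 2.50 and 1.35, and its call was lost without b or without c. The lower one, its relative sticks and stones (sns), measured -1.67, -1.79 and -0.57, and its other probes did not pass. Of 19 probes for calcium handling and energy supply in muscle, 7 were higher, among them the arginine kinase Argk1 (2.97) and the calcium pump SERCA (1.86). The second Argk1 probe gave -0.49 (adjusted p = 0.462).

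Structural proteins of the cuticle were also among the highest genes, though not as a whole list. Of 16 probes for known pupal and adult cuticle genes, 5 were higher, 0 lower and 11 did not pass, with a median of 0.86 (-0.90 without centring). Acp65Aa, an adult cuticle protein, measured 6.32, 7.37 and 6.96 (6.86 ± 0.71, adjusted p = 9.4e-07). Resilin, the rubber-like protein of wing hinges and tendons, measured 5.71, 5.95 and 6.45, and Acp1, another adult cuticle protein, measured 3.88, 4.02 and 3.65. All arrays of these genes lay well above the embryo, which is partly built in, since the genes were named by the values of the same arrays. Genes known for the pupal cuticle were much closer to the embryo: Edg78E measured 1.61, 2.51 and 0.75 (adjusted p = 0.0107, lost without b). Pcp gave 1.06 ± 0.45 (adjusted p = 0.0943) and Edg84A 0.78 ± 0.50 (adjusted p = 0.296), neither passing. For comparison, the estimates at pupal stage 1 were 3.90 for Edg78E and 3.52 for Pcp, but the differences from pupal stage 2 did not pass (adjusted p = 0.157 and 0.175).

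The Cpr genes, which carry the chitin-binding Rebers and Riddiford motif, had 40 of 74 probes higher and 1 lower, and their median of 1.35 fell to -0.41 without centring. Cpr49Ah measured 5.95, 6.58 and 6.99, Cpr49Ae 5.67, 5.61 and 6.64, and Cpr30B 5.87, 6.11 and 6.13. Cpr64Ac (5.74), Cpr76Bd (5.65) and Cpr97Eb (5.14) came next, so that at least 6 members stood more than 5 above the embryo. The family was split, since 33 probes did not pass. The larval cuticle genes (Lcp) had 2 of 13 probes higher, Lcp65Ad at 3.07 and Lcp65Ac at 2.71, with a median of 0.30 against 2.76 in larvae.

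The 4 Vajk genes, which encode secreted cuticle proteins rich in short repeats, were higher on all 5 of their probes, with a median of 5.88 that stayed at 4.12 without centring. Vajk3 measured 5.57, 6.51 and 6.79, Vajk4 5.31, 6.05 and 6.46, Vajk1 4.98, 4.32 and 6.39, and Vajk2 3.92, 4.48 and 5.97. Array c was the highest for each of the 4. The Tweedle genes, cuticle proteins of another family, had 4 of 26 probes higher (15.4%) and 3 lower (11.5%), or 1 lower without a and 0 lower without b or c. TwdlE (4.21), TwdlT (3.07) and Twdlbeta (2.47) were among the higher, while TwdlD, which measured -1.82, -2.16 and -1.33, was lower by a call that was lost without any one array. The Osiris genes, which encode membrane proteins of cuticle-secreting cells, had 10 of 24 probes higher and 1 lower (Osi11, -1.76), with a median of 0.60 that was -1.16 without centring. Osi18 (3.36), Osi19 (3.32) and Osi9 (3.18) led them.

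**Figure D2:**
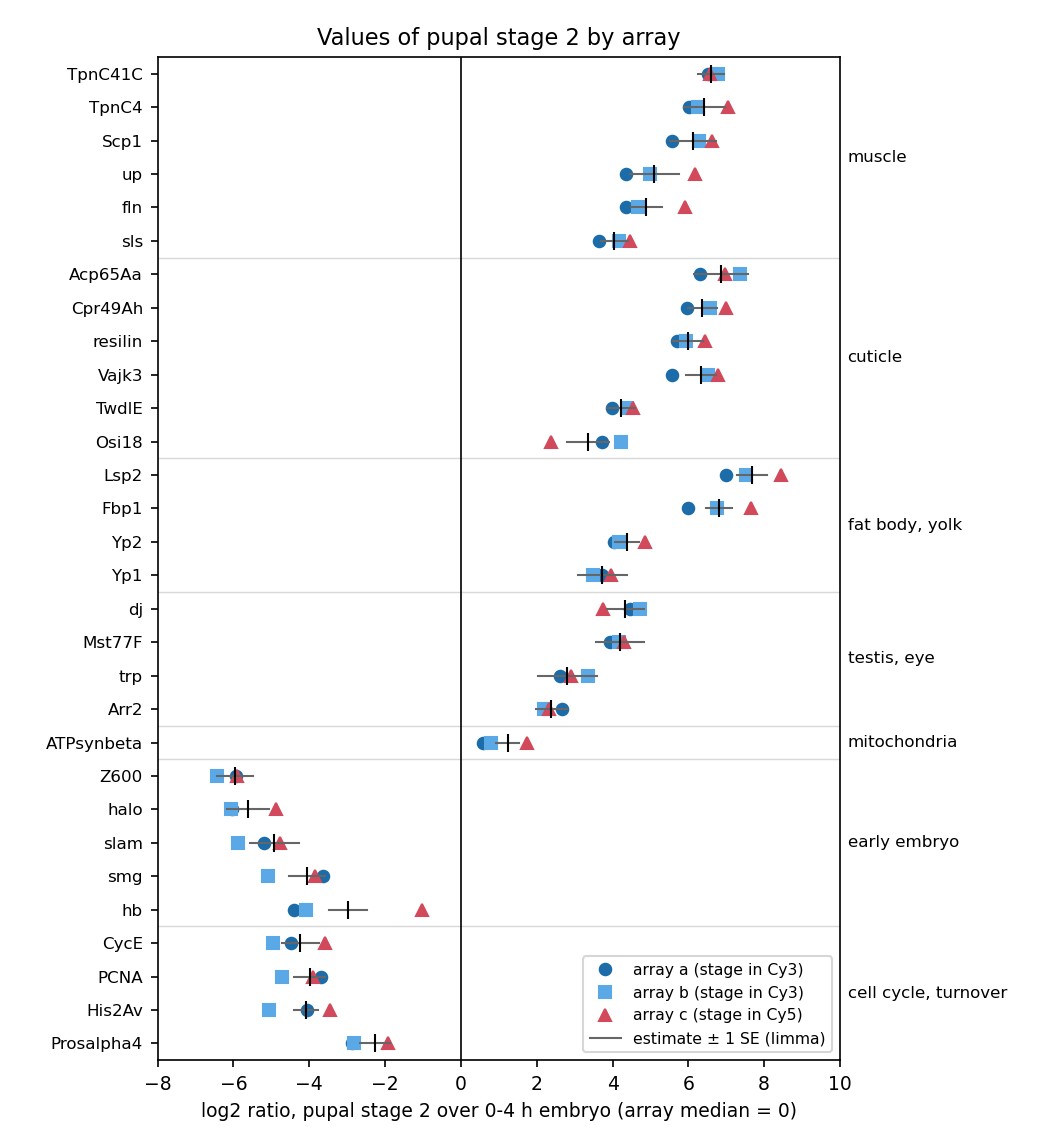
Log2 ratio of pupal stage 2 over 0-4 h embryo (x axis, array median at 0) for 30 genes by group, with arrays a, b and c as points and the limma estimate with 1 SE as a tick and line. The muscle genes lie between 3.63 and 7.03 on every array, and array c of hunchback (hb, -1.02) lies apart from a and b.

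Genes that make and shape chitin were higher on 21 of 42 probes and lower on 1, with a median of 0.94 (-0.82 without centring). The chitin deacetylases Cda5 (4.23) and serp (4.16) were the highest, followed by Gasp (3.54), a chitin-binding protein of tracheal and other cuticles. Of the genes for tanning and pigment of the cuticle, 12 of 24 probes were higher and 0 lower, with a median of 1.26 (-0.50 without centring). The gene yellow (y), needed for black pigment, measured 4.08, 4.23 and 3.17, and Punch (Pu), which makes the cofactor of tyrosine hydroxylase, measured 2.98, 3.53 and 3.36. The tyrosine hydroxylase gene ple (2.87) and dopa decarboxylase (Ddc, 2.59) passed as well, with array c of Ddc at 1.52 below a (2.79) and b (3.73). Zona pellucida proteins of the apical matrix were higher on 6 of 14 probes, with a median of 1.09 (-0.67 without centring), led by zye (4.40). Actin regulators of bristles and hairs stood near the background, with 1 of 14 probes higher (7.14%; jv, 1.24) and 4 lower (28.6%), singed (sn, -1.79) the most, and the calls of both genes were lost on leaving out single arrays.

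The fat body proteins reached the highest single value of the stage. Lsp2, a larval serum protein stored in the fat body, measured 6.99, 7.53 and 8.45 (7.68 ± 0.40, adjusted p = 2.14e-10), and its other probe gave 6.58. Fbp1, the receptor that takes serum proteins back into the fat body, measured 5.99, 6.75 and 7.65, and Fbp2, a fat body protein of the alcohol dehydrogenase family, 4.30, 4.71 and 6.88. Array c was the highest and a the lowest for all of these. The list of 11 probes had 7 higher and 0 lower, with a median of 4.15 (2.39 without centring), including apolpp (4.15), the main lipid carrier of the blood, and Obp99b (6.49), a secreted protein of the odorant-binding family. The salivary gland list of glue genes (Sgs) and ecdysone-induced genes of region 71E (Eig71E) was near the embryo level, with 1 of 19 probes higher, 1 lower and a median of -0.00.

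All 4 probes of the yolk protein genes, known from the fat body and ovary of adult females, were higher. Yp2 measured 4.04, 4.17 and 4.85 (4.39 ± 0.32, adjusted p = 2.34e-08), Yp1 3.71, 3.48 and 3.95, and Yp3 1.41, 1.59 and 2.30. No array of the 3 genes came near 0. The levels of Yp2 lay between -0.52 and 0.44 at the 3 embryo stages, in larvae and at pupal stages 1 and 3, and at 6.22 in adults. The Yp genes are alike in sequence, the probe sequences were not used here, and cross-hybridization between them was not tested. Of 16 probes for chorion and vitelline membrane, the shell of the egg, 3 were higher and 0 lower, Cp38 (2.43) and Cp36 (1.46) among them.

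Testis genes were higher on 28 of 59 probes and lower on 1, with a median of 1.15 (-0.61 without centring) against 1.83 in adults. The sperm tail gene don juan (dj) measured 4.47, 4.72 and 3.75. Mst77F, a protein of sperm chromatin, measured 3.93, 4.16 and 4.31, and the protamines ProtA (3.97) and ProtB (3.69), which pack sperm DNA, were close to it. Genes of the male accessory gland, which makes seminal fluid, were higher on 2 of 16 probes (12.5%, near the 9.75% of all probes with a symbol). Without c, 1 was called, and the median of the list was 0.69 with all arrays.

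Photoreceptor genes were higher on 11 of 35 probes and lower on 2, with a median of 0.29. The light-gated channel trp measured 2.61, 3.36 and 2.92 (2.81 ± 0.79, adjusted p = 0.0115), and arrestin 2 (Arr2), which ends the light response, measured 2.66, 2.19 and 2.33. The arrays of each agreed closely, yet trp was called neither without b nor without c. Chaoptin (chp, 2.69), the adhesion protein of the light-sensing membranes, and Ggamma30A (3.42), a G protein subunit of the eye, were higher too. Without array c, 6 of the 35 probes were higher. Eye pigment genes had 2 of 20 probes higher (10%) and 5 lower (25%, or 1 probe without b or without c). These shares lay near the 9.75% higher and 24.3% lower of all probes with a symbol. The higher ones were sepia (se, 2.61) and brown (bw, 1.09). The call of bw was lost without a or b. Neuronal and synaptic genes were higher on 21 of 67 probes and lower on 0, a count that fell to 11 without c, with a median of 0.53 (-1.23 without centring). The sodium pump subunit nrv3 (3.42) and the potassium channel Shab (2.66) led them. The active zone gene brp gave 1.93 on one of 3 probes, and its call was lost without a or b. Odorant-binding proteins had 8 of 41 probes higher and 0 lower, Obp44a at 5.03 and Obp56c at 4.10 next to Obp99b, while 4 of 155 probes for odorant, gustatory and ionotropic receptors were higher and 4 lower.

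Basement membrane and haemocyte genes were higher on 11 of 22 probes, with a median of 1.37 (-0.40 without centring) against 3.60 in embryos of 12-16 h. SPARC (3.07), the collagen IV chains Col4a1 (2.91) and vkg (2.88) and the laminin LanA (2.57) led them. Col4a1 was not called without c, and vkg measured 3.32, 3.97 and 1.83, with c the lowest.

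Lower genes at pupal stage 2 were those that early embryos are rich in. Z600, a brake on mitosis at gastrulation, measured -5.93, -6.44 and -5.90 (-5.95 ± 0.47, adjusted p = 4.94e-08), the lowest of all called probes with a symbol. Its estimates in the other stages from 12-16 h on lay between -5.98 and -5.82, so its value here was close to that of the other late stages. The lipid droplet regulator halo measured -6.04, -6.05 and -4.87, slow as molasses (slam), needed for cellularization, -5.19, -5.87 and -4.78, and Sry-alpha, another cellularization gene, -4.82, -4.85 and -4.81. A second probe of Sry-alpha gave -0.12 and did not pass.

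Of 45 probes for cellularization and early zygotic genes, 27 were lower and 2 higher, with a median of -1.21. Leaving out a or b left 16 lower and 0 higher. Bottleneck (bnk), which keeps the actin network of the forming cells from constricting too early, gave -3.73 ± 0.61. The gap gene hunchback (hb) measured -4.41, -4.08 and -1.02, so that c lay much closer to 0 than a and b. Egg activation and cleavage genes were lower on 22 of 34 probes and higher on 2, with a median of -1.47, among them the chorion peroxidase Pxt (-4.29) and the embryonic linker histone BigH1 (-3.58). The 2 higher ones were pip (2.06), a sulfotransferase of the follicle cells that defines the ventral side of the embryo, and one probe of dorsal (dl, 2.70), whose other probe gave -0.97. Germ plasm and axis genes were lower on 20 of 40 probes, 13 of them without c, and higher on 1 (par-1, 1.75, called on 1 of 6 probes and lost without c). The translational repressor smaug (smg) measured -3.63, -5.08 and -3.83, piwi, which silences transposons in the germ line, -3.81, -3.99 and -3.40, and oskar (osk), the organizer of germ plasm, -3.03, -3.42 and -3.03. The call of osk was lost without c.

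Cell division genes were lower almost throughout. Of 66 probes for mitosis and cyclins, 59 were lower and 0 higher, with a median of -2.38. Cyclin E (CycE) measured -4.47, -4.97 and -3.59, the checkpoint gene mad2 -4.47, -4.74 and -3.66, and thr, a partner of separase in the release of sister chromatids, -3.77, -3.76 and -3.94. All arrays lay more than 3 below the median probe, which is partly built in, since these genes were named by the values of the same arrays. DNA replication genes were lower on 30 of 40 probes and higher on 0, with a median of -2.13. The sliding clamp PCNA measured -3.69, -4.71 and -3.91, and dUTPase, which keeps uracil out of DNA, and the ribonucleotide reductase subunit RnrL were lower by similar amounts, at -3.71 and -3.52. Chromatin and histone genes were lower on 14 of 20 probes, led by the histone variant His2Av (-4.08) and the nucleoplasmin Nlp (-3.12). Notch and proneural genes were lower on 17 of 34 probes (11 without b) and higher on 1, Bearded (Brd, -4.63) and Tom (-3.44), inhibitors of Notch signalling, the most. Tom measured -4.47, -2.02 and -4.01, with b apart.

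Proteasome subunits were lower on 25 of 27 probes and higher on 0 (19 or 20 lower without any one array), with a median of -1.52. Prosalpha4, a subunit of the core ring, measured -2.88, -2.82 and -1.91. The median over the list was -1.98 on array a, -2.01 on b and -1.04 on c, and -0.62 in the adult estimate. Ribosome biogenesis genes were lower on 22 of 35 probes, or 14 without a or b, with a median of -1.21, Nop60B (-3.27), a pseudouridine synthase of ribosomal RNA, the most. Cytosolic ribosomal proteins were lower on 10 of 40 probes, near the 24.3% of all probes with a symbol, and on 5 without c. Among the members called were RpS5b (-2.10), a variant known from the germ line, and, as the only higher one, RpL10Aa (2.12). RpS5b was not called without c, nor RpL10Aa without b.

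**Figure D3:**
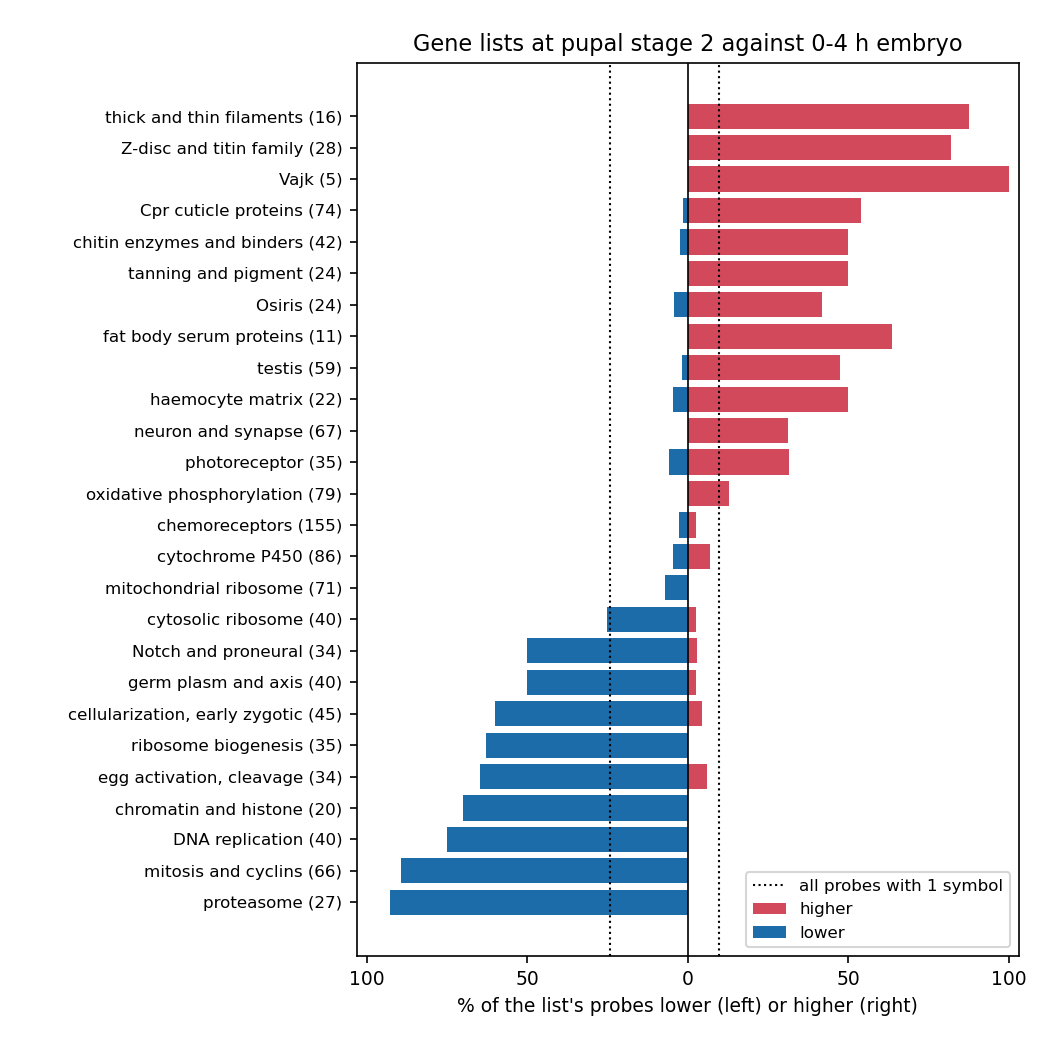
Share of each list's probes (number in brackets) that were higher (right) or lower (left) at pupal stage 2 than in 0-4 h embryos at an adjusted p under 0.05 (x axis, %). Dotted lines mark the 9.75% higher and 24.3% lower among all probes with 1 symbol. Bars hold for array medians at 0: without centring the medians of all lists shown lay below 0 except for both muscle lists, Vajk and the fat body serum proteins.

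Hormone-related genes differed by list. Of 32 probes for ecdysone receptors and early response genes, 1 was higher and 3 lower, or 1 lower without a or b. ImpE1, an ecdysone-inducible gene of imaginal discs, measured 2.16, 2.33 and 1.53 on the one of 2 probes that passed, and was not called without c. The ecdysone receptor (EcR) measured -1.52, -1.38 and -0.13 and broad (br) -1.67, -1.53 and -0.05, with c at the median probe for both, and both calls were lost without a or b. The other EcR probe (-0.52) and the other 3 br probes (0.68, 0.53 and -0.39) did not pass. E23, an ecdysone-induced transporter, was lower at -2.18 on one of its 2 probes. Of 9 probes for the making and breakdown of ecdysteroids, 4 were lower (44.4%), or 1 without a or b, spook (spo, -4.11, -4.25 and -4.16), an early enzyme of the pathway, by far the most. Cyp18a1, which inactivates ecdysone, gave 0.77 ± 0.31 and did not pass (adjusted p = 0.0784). Of 18 probes for moulting and eclosion peptides and their receptors, the higher one was myosuppressin (Ms, 1.99), a neuropeptide that quiets muscle, whose call was lost without c. Cell death genes were lower on 3 of 14 probes (21.4%, near the 24.3% of all probes with a symbol), with Dcp-1 (-1.61), an effector caspase, and Dark (-0.98), the apoptosome adaptor, both losing the call without any one array. Autophagy genes were lower on 8 of 30 probes (26.7%, also near that background), or 5 without any one array of pupal stage 2, Atg17 (-2.48) the most.

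Other lists differed in how they stood to the 9.75% higher and 24.3% lower of all probes with a symbol. Cytochrome P450 genes had 6 of 86 probes higher (6.98%) and 4 lower (4.65%), glutathione transferases 8 of 36 higher (22.2%, or 4 probes without c) and 5 lower, digestive enzymes 9 of 59 higher (15.3%, or 1 probe without c) and 0 lower, and subunits of the vacuolar proton pump 2 of 30 higher and 4 lower (0 and 0 without a or b). Immune peptides were higher on 5 of 23 probes (21.7%) and lower on 0, or higher on 2 without a or c, among them drosomycin (Drs), which measured 1.04, 1.64 and 3.12 and was not called without c. Heat shock genes went both ways, with 4 of 17 probes higher and 6 lower, or 1 higher without a or b and 3 lower without c. The small heat shock protein gene l(2)efl measured 3.38, 3.61 and 3.00, and Hsp26, another small heat shock protein, -2.76, -3.35 and -2.32.

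Pupal stage 2 was then set against pupal stage 1 to find where it differed from its neighbour. Of all probes, 107 were higher (0.449%) and 45 lower (0.189%). Pupal stage 1 had arrays a and b only, both with the stage in Cy5, and its duplicate spots agreed less (r = 0.374 and 0.468) than those of pupal stage 2 (0.706 to 0.835). The counts depended on single arrays: without array b of pupal stage 1 there were 423 higher and 214 lower, without its array a 31 and 25, and without array c of pupal stage 2, 9 and 10. Without centring 3 were higher and 11 lower.

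The genes most reduced from pupal stage 1 belonged to the salivary gland. Of 19 probes for glue and Eig71E genes, 5 were lower at pupal stage 2 and 0 higher, with a median difference of -3.23. Eig71Ee measured 0.33 on a, 0.59 on b and less than 0 on c at pupal stage 2, against 5.74 and 6.22 at pupal stage 1 (difference -7.04 ± 0.78, adjusted p = 0.000239). The glue gene Sgs7 measured 0.15, 0.28 and 0.58 against 6.59 and 6.10 (difference -6.50), and Eig71Ea 1.21, 0.98 and -1.28 against 6.34 and 6.03 (difference -6.08). The stages did not overlap for any of the 3, and each passed without any one array. Gaps between stages are partly built in for genes picked by the same contrast, here and below. Their share over all probes was not counted. Eig71Ej (-4.88) and Sgs4 (-6.01) passed with all arrays, though the other probe of Sgs4 (-4.99) did not pass. The call of Eig71Ej was lost without c, and that of Sgs4 without any one array of pupal stage 2. Sgs3 (-3.76, adjusted p = 0.161) and Sgs8 (-3.02, adjusted p = 0.327) did not pass. CG7906, of no function stated here, measured 0.06, 0.19 and -0.54 against 4.83 and 4.93. Of the cuticle, Cpr65Ec (-4.29) and the moulting chitinase Cht5 (-2.90) were lower than at pupal stage 1, and both calls were lost on leaving out single arrays.

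Muscle genes were among those higher than at pupal stage 1. Of 16 thick and thin filament probes, 6 were higher and 0 lower, with a median difference of 2.45, but 3 without a, 3 without b, 0 without c and 0 without array a of pupal stage 1. Flightin (fln) measured 4.34, 4.67 and 5.92 against 0.75 and 1.45 (difference 3.54 ± 0.67, adjusted p = 0.0165). Scp1 measured 5.57, 6.29 and 6.62 against -0.77 and 2.42 (difference 5.18), and TpnC41C 6.52, 6.79 and 6.58 against 3.18 and 3.89 (difference 2.96). None of the 3 overlapped between the stages, and none was called without array a of pupal stage 1 or without array c of pupal stage 2. Scp1 and TpnC41C were also lost without array b of pupal stage 2. The actins Act79B (2.53), Act88F (2.37) and Act87E (2.18) differed by like amounts. These actins are nearly identical in sequence, so their probes may not tell them apart. Other probes of Scp1 gave differences from pupal stage 1 of 2.49 (adjusted p = 0.426) and 0.12 (adjusted p = 0.986), which did not pass.

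Genes of mitochondrial energy supply moved in the same contrast. Of 79 probes for oxidative phosphorylation, 12 were higher than at pupal stage 1 and 0 lower, with a median difference of 1.38, and of 18 for the citric acid cycle and glycolysis 3 were higher. ATPsynbeta, a catalytic subunit of the ATP synthase, measured 0.58, 0.79 and 1.74 against -0.76 and -0.60 (difference 2.50 ± 0.50, adjusted p = 0.0244). The mitochondrial aconitase mAcon1 measured 0.96, 0.92 and 2.45 against -0.67 and -0.35 (difference 2.79). Array c was the highest for both. Without array c, and also without array a of pupal stage 1, 0 of the 79 were called. Of 71 probes for the mitochondrial ribosome, 5 were higher than at pupal stage 1, but 1 without b, 0 without c and 1 without array a of pupal stage 1. The 3 of the citric acid cycle and glycolysis fell to 1 without b, 0 without c and 0 without array a of pupal stage 1. Against the embryo, 10 of the 79 were higher (5 without c) and 0 lower, with a median of 0.49 (-1.27 without centring), and ATPsynbeta at 1.23 turned to -0.53 without centring.

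Against pupal stage 3, 74 probes were higher at pupal stage 2 (0.311%) and 7 lower (0.0294%). Leaving out single arrays of either stage left 18 to 34 higher and 3 to 5 lower. Without centring the median difference moved by -1.32, and 0 were higher and 7 lower. The contractile genes did not differ by this test, with 0 of 16 thick and thin filament probes called and a median difference of 0.16.

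Some genes of the fat body list and several cuticle genes were higher than at pupal stage 3. Fbp2 measured 4.30, 4.71 and 6.88 against 1.28, 1.51 and 2.83 at pupal stage 3 (difference 3.64 ± 0.67, adjusted p = 0.0166). Fbp1 (2.53) and apolpp (2.77) passed too, while Lsp2 (1.70, adjusted p = 0.293) did not. In total 3 of the 11 fat body probes passed, and 0 without b or without c. Vajk4 measured 5.07, 5.78 and 6.75 on the probe with the larger difference, against 2.52, 2.06 and 2.39 (difference 3.57), and its other probe passed as well. Cpr49Ah measured 5.95, 6.58 and 6.99 against 2.40, 2.63 and 3.13 (difference 3.50), and TwdlT 2.51, 2.56 and 3.60 against 0.90, 1.05 and -0.53 (difference 2.78). The stages did not overlap for any of these, and TwdlT passed without any one array, while Vajk4 and Cpr49Ah were lost without c. The Osiris genes Osi7 (3.06) and Osi15 (2.85), the chitinase Cht10 (2.62) and straw (stw, 2.30), a laccase of cuticle tanning, were higher than at pupal stage 3 by calls that rested on single arrays.

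Few genes were lower than at pupal stage 3. CG15617, of no function stated here, measured 1.60, 1.69 and 1.52 against 5.80, 5.26 and 4.89 (difference -3.76 ± 0.56, adjusted p = 0.00537) and passed without any one array. The tyrosine hydroxylase gene ple, which starts the synthesis of the catecholamines used in tanning, measured 2.47, 3.15 and 3.10 against 5.72, 5.68 and 4.99 (difference -2.64). One of 4 probes of the inducible heat shock gene Hsp70Bb was lower (-2.01), its other 3 did not pass, and the call was lost without any one array of either stage. The stages did not overlap for CG15617 or ple, though ple was called with neither a, b nor c of pupal stage 2 left out.

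Against the mean of both neighbours, 22 probes were higher at pupal stage 2 (0.0924%) and 3 lower (0.0126%). Single arrays set these counts: without a, b and c there were 11, 7 and 2 higher, and 2, 2 and 0 lower. Without array b of pupal stage 1 there were 108 and 34, without its array a 13 and 4, without array c of pupal stage 3 12 and 3, and without centring 3 and 3. Of the 22, 19 lay above every array of pupal stages 1 and 3 on all arrays of pupal stage 2, and of the 3, all lay below. These probes were picked by the contrast of the same arrays, which partly builds such gaps in. The share of all probes with such a gap was not counted. The higher probes with a symbol belonged to 16 genes. Among them were the cuticle genes resilin, Cpr56F, Cpr30F, Cpr64Aa and TwdlT, the mucin-like genes Muc12Ea and Muc91C, the yolk gene Yp2 and Jhbp6, of the juvenile hormone-binding protein family. CG13231, CG16826, CG7072, CG2663, CG13217, CG14515 and CG11786 completed them. A call against the mean does not mean a difference from each neighbour. CG14515 passed against pupal stage 3 but not against pupal stage 1 (1.75, adjusted p = 0.227). With each neighbour tested by itself, 15 of all probes were higher than both and 0 lower than both. The calls of Cpr30F, Cpr64Aa, TwdlT, Jhbp6 and CG7072 were each lost without any one array of pupal stage 2, and those of Muc12Ea, Muc91C and CG16826 without c. The other probe of CG7072 gave 0.30 over the embryo and differed by -0.17 from pupal stage 1 and -0.23 from pupal stage 3, none of which passed. For Muc12Ea, the other probe differed by 1.34 from pupal stage 1 and 1.57 from pupal stage 3, and neither difference passed.

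Yp2 stood out against both neighbours by the most certain difference. It measured 4.04, 4.17 and 4.85 against 0.95 and 0.13 at pupal stage 1 and 0.59, 0.43 and -0.19 at pupal stage 3, a difference from their mean of 4.05 ± 0.43 (adjusted p = 0.000201). It passed in all 3 contrasts without any one array, and its other probe passed in all 3 with all arrays. Yp1 differed by 4.25 from pupal stage 1 (adjusted p = 0.0798) and by 3.92 from pupal stage 3 (adjusted p = 0.0768), both just outside the threshold. CG13231 measured 5.60, 5.53 and 4.50 against -0.57 and 1.50 and against 1.92, 1.89 and 0.69 (difference from the mean 4.35 ± 0.57). Resilin measured 5.71, 5.95 and 6.45 against 2.22 and 2.06 and against 3.32, 2.85 and 2.65 (difference 3.34 ± 0.52), and Cpr56F 4.01, 3.89 and 3.79 against -0.84 and 1.07 and against 1.51, 1.18 and 0.46 (difference 3.44 ± 0.57). For all 4 genes every array of pupal stage 2 lay above every array of the neighbours. Resilin was not called without c, and Cpr56F was lost without any one array of pupal stage 2. Eig71Ee (-4.47) and CG33998 (-2.50) were the lower genes, both from high values at pupal stage 1, and neither difference from pupal stage 3 passed (adjusted p = 0.334 and 0.526). The call of Eig71Ee was lost without c and that of CG33998 without any one array of pupal stage 2.

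**Figure D4:**
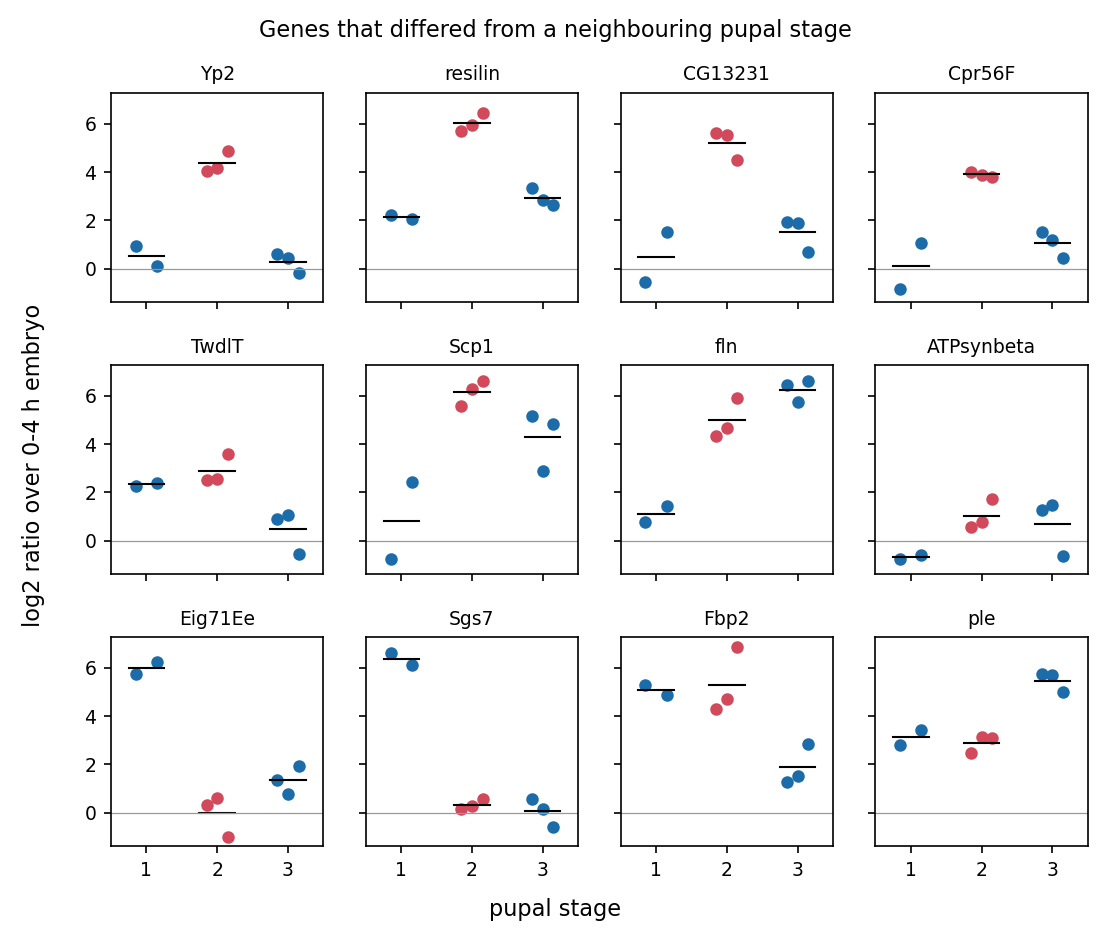
Log2 ratio over 0-4 h embryo (y axis) on each array of pupal stages 1, 2 (red) and 3 (x axis) for 12 genes, with a bar at the mean. Yp2, resilin, CG13231 and Cpr56F lie highest at pupal stage 2, Eig71Ee and Sgs7 fall from about 6 at pupal stage 1 to about 0, and ple is highest at pupal stage 3.

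Across all 8 stages the high genes of pupal stage 2 followed different courses. Acp65Aa stood at -0.19 in larvae, 2.35 at pupal stage 1, 6.86 at pupal stage 2, 5.57 at pupal stage 3 and 4.06 in adults. Its differences from pupal stage 1 (4.52, adjusted p = 0.0959) and pupal stage 3 (1.29, adjusted p = 0.745) did not pass. TpnC41C went from 1.25 in larvae through 3.64, 6.60 and 6.31 at the pupal stages to 8.19 in adults. Lsp2 was already at 7.06 in larvae and 7.70 at pupal stage 1. Vajk4 and Osi19 had reached 6.11 and 5.53 in embryos of 12-16 h, when the larval cuticle is laid down, and stood at 1.82 and -0.85 in larvae. These are levels with no test between them beyond the neighbours given above.

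**Figure D5:**
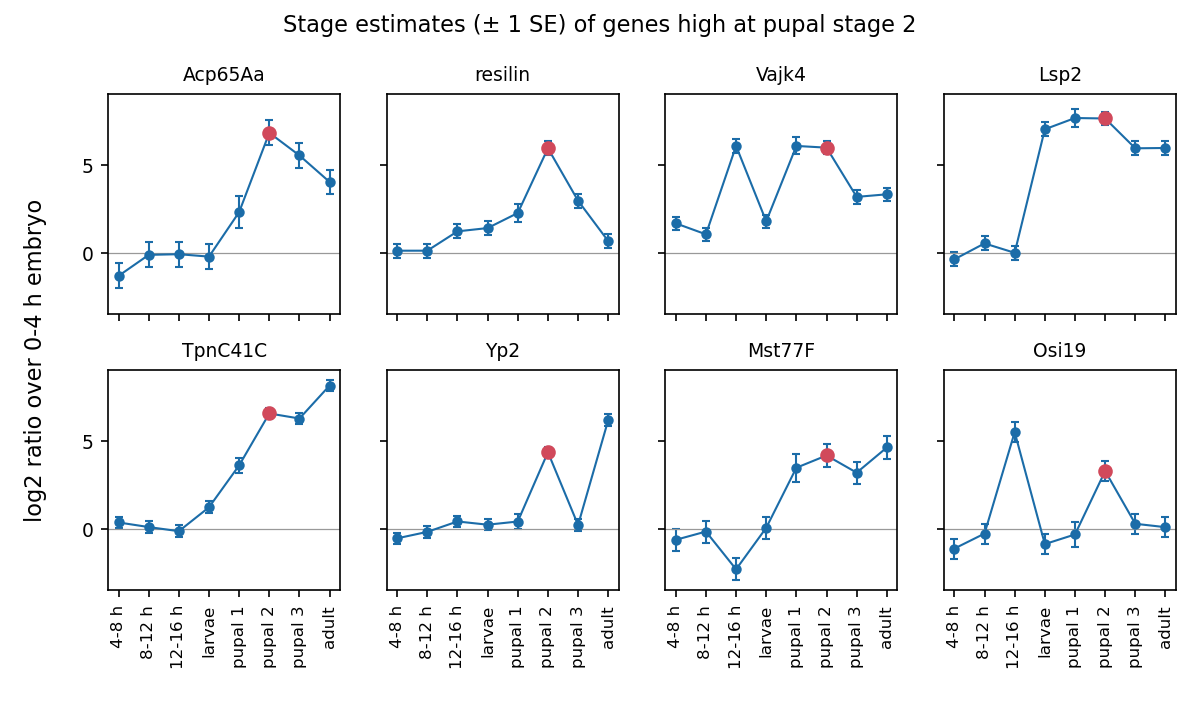
Limma estimate of the log2 ratio over 0-4 h embryo (y axis, bars 1 SE) at the 8 stages (x axis) for 8 genes, with pupal stage 2 in red. Resilin peaks at pupal stage 2 (5.98), Yp2 is high at pupal stage 2 and in adults, and Vajk4 and Osi19 are high both in 12-16 h embryos and in pupae.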

How the data were processed

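For each of 47616 spots of an array the authors deposited a ratio of Cy5 to Cy3, as the labels define it, on a log2 scale that was read from the values. Per the labels, slides were scanned with ScanArray and quantified with GenePix, and hybridizations were kept by the spread of the duplicate spots. No background step or normalization is stated in the sources used here. From these values, those at the limits of the deposited scale (18 spots of the 3 arrays) were left out, the median of each array was subtracted, the sign was turned where Cy3 held the stage, and duplicates were averaged. Array c of pupal stage 1 held no ratio and was left out. No channel intensities were used, so no loess fit or limit of background was possible.

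limma 3.58.1 in R 4.3.3 (lmFit, eBayes) was fitted with 1 coefficient per stage and a dye term (residual df 14, prior df 5.71), and pupal stage 2 was tested against 0 and as contrasts with pupal stages 1 and 3, by two-sided tests with Benjamini-Hochberg adjustment across all 23808 probes. The test against 0 leaves out the spread of the reference. The dye term passed for 3632 probes. The fit was also run on simulated data, and no result given here rests on that run. Symbols came from the platform annotation (13455 probes with 1 symbol, 153 with several, 10200 with none), and 12851 matched RefSeq symbols.

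The arrays and the 50 gene lists were chosen with earlier results of these data known. Named genes are the 15 highest and lowest (8 for each contrast) with 1 symbol, plus up to 6 passing members of each list and direction and members that did not pass. The 15 highest and lowest against the embryo all had one sign on arrays a, b and c. Since they were picked by these arrays, that agreement is no separate finding. Muc91C, CG2663, CG13217, CG14515 and CG11786 were named after their values were seen. Name patterns had also caught Cp190, Cyp1, Pbp49 and Pbp95, which belong to other families and were taken out of the lists after their values were seen. Alternatives were values without centring, no dye term, arrays left out, fewer arrays, another scale or centring, close duplicates, a replicate block, another variance prior and a size limit.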

Additional observations from a re-analysis of the deposited data

Results flagged for a closer look

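Pupal stage 2 differed from its neighbours in the tested contrasts by the following probes and genes, given as differences on the log2 scale with no explanation. Against pupal stage 1, 107 probes were higher and 45 lower. The highest were Scp1 (5.18), CG13231 (4.91), lcs (4.47), Cpr76Ba (4.40), Prm (4.25), Osi18 (4.25), CG16826 (4.18) and CG33060 (4.08). The lowest were Eig71Ee (-7.04), Sgs7 (-6.50), Eig71Ea (-6.08), Sgs4 (-6.01), CG7906 (-5.50), CG7924 (-5.21), Eig71Ej (-4.88) and Cpr65Ec (-4.29). Other probes of Scp1 (2.49 and 0.12), Prm (2.09 and 3.38) and Sgs4 (-4.99) did not pass in this contrast. For lcs, array c at 6.10 lay far above a (2.19) and b (2.26), its duplicate spots differed by up to 7.94 on an array of pupal stage 2, and its call was lost without b, without c (2.69) and without array a of pupal stage 1 (3.25). The calls of Cpr76Ba, Prm, Osi18, CG33060, CG7924, Sgs4 and Cpr65Ec were each lost without any one array of pupal stage 2 and without array a of pupal stage 1, where Cpr76Ba gave 2.23. Those of Scp1, CG13231 and CG16826 were lost without array a of pupal stage 1 as well. Of the arrays of pupal stage 2, that of Scp1 was also lost without b or c, and those of CG16826 and Eig71Ej without c.

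Against pupal stage 3, 74 probes were higher and 7 lower. The highest were CG13050 (4.39), Yp2 (4.15), CG13231 (3.79), Fbp2 (3.64), Vajk4 (3.57), Cpr49Ah (3.50), CG12164 (3.47) and CG14515 (3.41). The lower genes were CG15617 (-3.76), ple (-2.64) and Hsp70Bb (-2.01). The calls of ple and Hsp70Bb were lost without any one array of pupal stage 2, those of CG13050 and Fbp2 without b or c, that of CG13231 without b, and those of Vajk4 and Cpr49Ah without c.

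Against the mean of both, 22 probes were higher and 3 lower. The highest were CG13231 (4.35), Yp2 (4.05), CG16826 (3.76), CG7072 (3.59), Cpr56F (3.44), resilin (3.34), Muc12Ea (3.31) and Jhbp6 (2.93), and the lower ones were Eig71Ee (-4.47) and CG33998 (-2.50). The calls of CG7072, Cpr56F, Jhbp6 and CG33998 were lost without any one array of pupal stage 2, and those of CG16826, resilin, Muc12Ea and Eig71Ee without c. The other probe of CG7072 did not pass in any of the 3 tests given for it, and that of Muc12Ea passed against neither pupal stage 1 nor pupal stage 3.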

How the results depend on the processing

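Counts are given as probes higher and lower, in the order of the embryo, pupal stage 1, pupal stage 3 and both neighbours. Without centring they were 264 and 16339, 3 and 11, 0 and 7, and 3 and 3, and the estimates of ATPsynC (-0.53), ATPsynbeta (-0.53), Actn (-0.25), Cp36 (-0.30), Edg78E (-0.24), bw (-0.67), hbs (-0.20), jv (-0.52) and par-1 (-0.0098) turned below 0. With arrays a and b averaged within pupal stage 2 and within pupal stage 3 they were 1307 and 2138, 11 and 10, 1 and 0, and 2 and 0. With only the arrays of the stages compared they were 5366 and 6239, 0 and 0, 150 and 55, and 12 and 9. Without a dye term they were 51 and 27 against pupal stage 1 and 28 and 4 against pupal stage 3. Close duplicate spots left 26 lower than at pupal stage 1, and a trended robust variance prior left 4 lower than at pupal stage 3. Arrays scaled to one spread gave 51 and 6 against both neighbours. Leaving out single arrays gave 1346 to 1461 higher and 2255 to 2913 lower than the embryo, 9 to 423 and 10 to 214 against pupal stage 1, 18 to 34 and 3 to 5 against pupal stage 3, and 2 to 108 and 0 to 34 against both. The cause of these shifts was not tested. A replicate block gave 2202 and 3754, 105 and 38, 57 and 6, and 28 and 6. Deviations from the stage means correlated from -0.62 to 0.48 between arrays of the same letter. No dye term was taken out of these deviations, so they cannot show whether array letters pair the samples. Of 144 genes tested against the embryo, 143 kept their call under the block, and 128 to 134 without one array of pupal stage 2.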

Other observations

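By chromosome arm (RefSeq gene table, Release 6 plus ISO1 MT), the share of probes higher at pupal stage 2 than in the embryo was 6.38% on X, against 11.3% on 2L, 10.5% on 2R, 11.6% on 3L, 8.77% on 3R and 15.8% on 4. The share of lower probes was 24.5% on X and between 23.2% and 28.9% on the other arms. These are descriptions, since probes are not independent, and no test was run.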
